A study of Mus musculus with 10 samples.

Results

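Small nucleolar RNA (snoRNA) genes were taken as all genes whose symbol in the platform annotation starts with Snord or Snora. For each gene, the probe set that carried that single symbol and had the highest mean over the 10 arrays was used, with no filter on level. This gave 51 genes of the 19938 with a symbol of their own, 31 of them C/D box (Snord) and 20 of them H/ACA box (Snora) genes. Genes were chosen by name and their probe sets by the mean log2 level over the arrays. The family was taken up with the differences of Snord118 and Snora41 already known, so it was not picked independently of the comparison described here.

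C/D box snoRNAs pair with ribosomal RNA and guide the addition of a methyl group to the ribose, which the enzyme fibrillarin carries out. H/ACA box snoRNAs guide the change of a uridine into pseudouridine by the enzyme dyskerin. A few members of either class are instead needed to cut the long ribosomal RNA precursor into its mature pieces. In mammals most snoRNAs are made inside introns of other genes, the host genes, many of which encode ribosomal proteins or translation factors, and are trimmed out of the excised intron. Ribosome production is high in growing and dividing cells.

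Prostates of 10 male TRAMP mice were each read on 1 whole-transcript array. In this line, used for both groups, the probasin promoter drives a viral T antigen in prostate epithelium, and tumours follow. From an age of 8 to 9 weeks, 5 mice received nicotine tartrate in their tap water at 250 µg/ml of nicotine (nicotine mice), and the other 5 received tap water alone (water mice). The labels state neither the length of treatment nor the tumour stage. Each value is a log2 level as deposited, with array medians from 7.50 to 7.57, and values of different probe sets were not set against each other as amounts of RNA.

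Tissue markers set the prostates of nicotine mice 1 and 3 off from the rest. The mean of the neuroendocrine markers (6 of 7 measured) was 9.82 log2 units for nicotine 1, 10.33 for nicotine 3 and 7.22 to 7.51 for the other nicotine mice, against 7.04 to 7.64 in water mice. Prostate luminal markers (6 of 7) averaged 7.34 in nicotine 3 and 11.64 in nicotine 1, and 12.17 to 12.55 in the other nicotine mice, against 12.13 to 12.45 in water mice. Pbsn itself, the defining secretory gene, stood at 5.08 in nicotine 3 and 9.17 in nicotine 1, and at 10.86 or more in all other mice. Nicotine 3 was the lowest mouse in all 6 luminal genes, but Foxa1 stood at 11.26 there, against 11.71 to 11.96 in water mice. Nicotine 1 was above the water mean in 1 of the 6, Krt8, where it was the highest of all mice at 13.14. Its Msmb (12.99) and Krt18 (12.41) lay near the water mice (13.25 to 13.30 and 12.53 to 12.63). Smooth muscle markers (5 of 5) averaged 7.98 in nicotine 3 and 11.07 to 11.75 in the other nicotine mice, against 11.34 to 11.61 in water mice. Skeletal muscle markers (5 of 5) averaged 10.56 in nicotine 1, against 7.58 to 7.98 in the other nicotine mice and 7.82 to 7.99 in water mice. Main counts and medians, and the values of most genes described, are given below with and without these mice.

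By their positions in RefSeq's gene table (assembly GRCm38.p6), all 51 symbols matched a gene, and 50 lay inside another gene. The exception was Snord118. Of the 40 host genes, 16 encode ribosomal proteins and hold 21 of the members, while 13 members lie in long non-coding RNA genes such as Gas5, Snhg1, Snhg3 and Snhg12. The annotated C/D box genes are 45 to 148 bases long, with a median of 68, and the H/ACA box genes 61 to 205 bases, with a median of 125.

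Many host genes of this kind start transcription in a run of pyrimidines (C or T), the hallmark of messages whose translation follows growth signals. Of the 30 host genes with a start sequence in the RefSeq table, 11, or 36.7%, had a run of at least 7 bases, all C or T. A run counted if it reached within 5 bases of an annotated start. Of all 27025 genes in that table, 16.4% had such a run. For a gene with several annotated starts the longest run was taken, and the number of starts was not matched between hosts and all genes. The starts of 7 host genes are shown because these genes hold 9 of the 11 members with an unadjusted p under 0.05, described further on. Of the 11, Snord118 lies in no host gene, and the start of Snhg4, host of Snora74a, is not shown, so the listing is not complete. Each line gives 10 bases before and 20 after the annotated start, 5′ to 3′ on the gene's strand, and capitals mark such a run.
Eef1b2, host of Snora41, chr1:63176821-63176850, plus strand: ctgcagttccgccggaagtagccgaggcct
Ipo7, host of Snora23, chr7:110018305-110018334, plus strand: gCTTCTCTTTCCTTTCgcgccggttgccgc
Rps3, host of Snord15a and Snord15b, chr7:99483690-99483719, minus strand: aagggtcgccgcgctgcgcggcgtcattgc
2410006H16Rik, host of Snord49a and Snord49b, chr11:62602867-62602896, plus strand: cgccgTCTTTCTCTgcggccatcatgggat
Rpl27a, host of Snora3, chr7:109519185-109519214, plus strand: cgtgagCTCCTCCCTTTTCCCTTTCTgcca
Rps3a1, host of Snord73b, chr3:86142649-86142678, minus strand: gccggaagggcgaaagagcaagggtcacgt
Rpl23, host of Snora21, chr11:97782420-97782449, minus strand: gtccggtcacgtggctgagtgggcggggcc
The run was found in Ipo7, in the non-coding gene 2410006H16Rik and in Rpl27a, and not at the listed starts of the other 4, which says only that these letters are not in this window.

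The first comparison was nicotine against water. By limma over all 19938 genes with Benjamini-Hochberg adjustment, 0 of the 51 snoRNA genes passed an adjusted p of 0.05, as 0.0% of all genes did, so no member can be said to differ. The smallest adjusted p among the members was 0.5145. Taken without adjustment, p was under 0.05 with a positive difference, nicotine minus water, in 11 members, or 21.6%, beside 3.93% of all genes. The member nearest that limit inside it was Snord49a (0.37 ± 0.16, SE) and outside it Snord38a (0.23 ± 0.10). In the negative direction 0 members reached that level, beside 5.31% of all genes. The difference was positive in 40 of 51 members, or 78.4%, beside 52.7% of all genes. The median difference was 0.17 log2 units over the members and 0.01 over all genes. In whole prostates, more cells that make a snoRNA and more of it per cell cannot be told apart. Whether the probe sets read the trimmed snoRNA alone or also the host transcript around it was not tested. The same limit holds for the comparison with host genes below.

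Without nicotine mice 1 and 3 the picture was close to this one: 44 of 51 members had a positive difference, beside 54.6% of all genes, with a median of 0.15. In that fit 11 members were higher at an unadjusted p under 0.05, beside 5.21% of all genes, 2 were lower (Snord14e and Snora75), beside 7.22%, and 0 passed after adjustment. With array weights, a limma option that gave these mice the lowest weights, 9 of the 51 passed after adjustment, 8 higher and 1 lower, beside 2.35% of all genes. Without water 2, which is described below, 37 members had a positive difference, beside 55.2% of all genes, and 7 were higher at an unadjusted p under 0.05, beside 3.64%. Leaving out water 3 gave 6 such members, beside 1.93% of all genes, and leaving out water 5 gave 7, beside 2.68%.

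Both classes leaned the same way. Among C/D box genes 25 of 31 had a positive difference, with a median of 0.18, and among H/ACA box genes 15 of 20, with a median of 0.11. Of the 11 members at an unadjusted p under 0.05, 6 were C/D box and 5 were H/ACA box genes. The C/D box median was 0.09 without nicotine 3 and 0.11 without water 2, and the H/ACA box median was 0.21 without water 1. Without nicotine mice 1 and 3 the medians were 0.14 for C/D box and 0.15 for H/ACA box genes. No test was made between the classes.

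**Figure D1:**
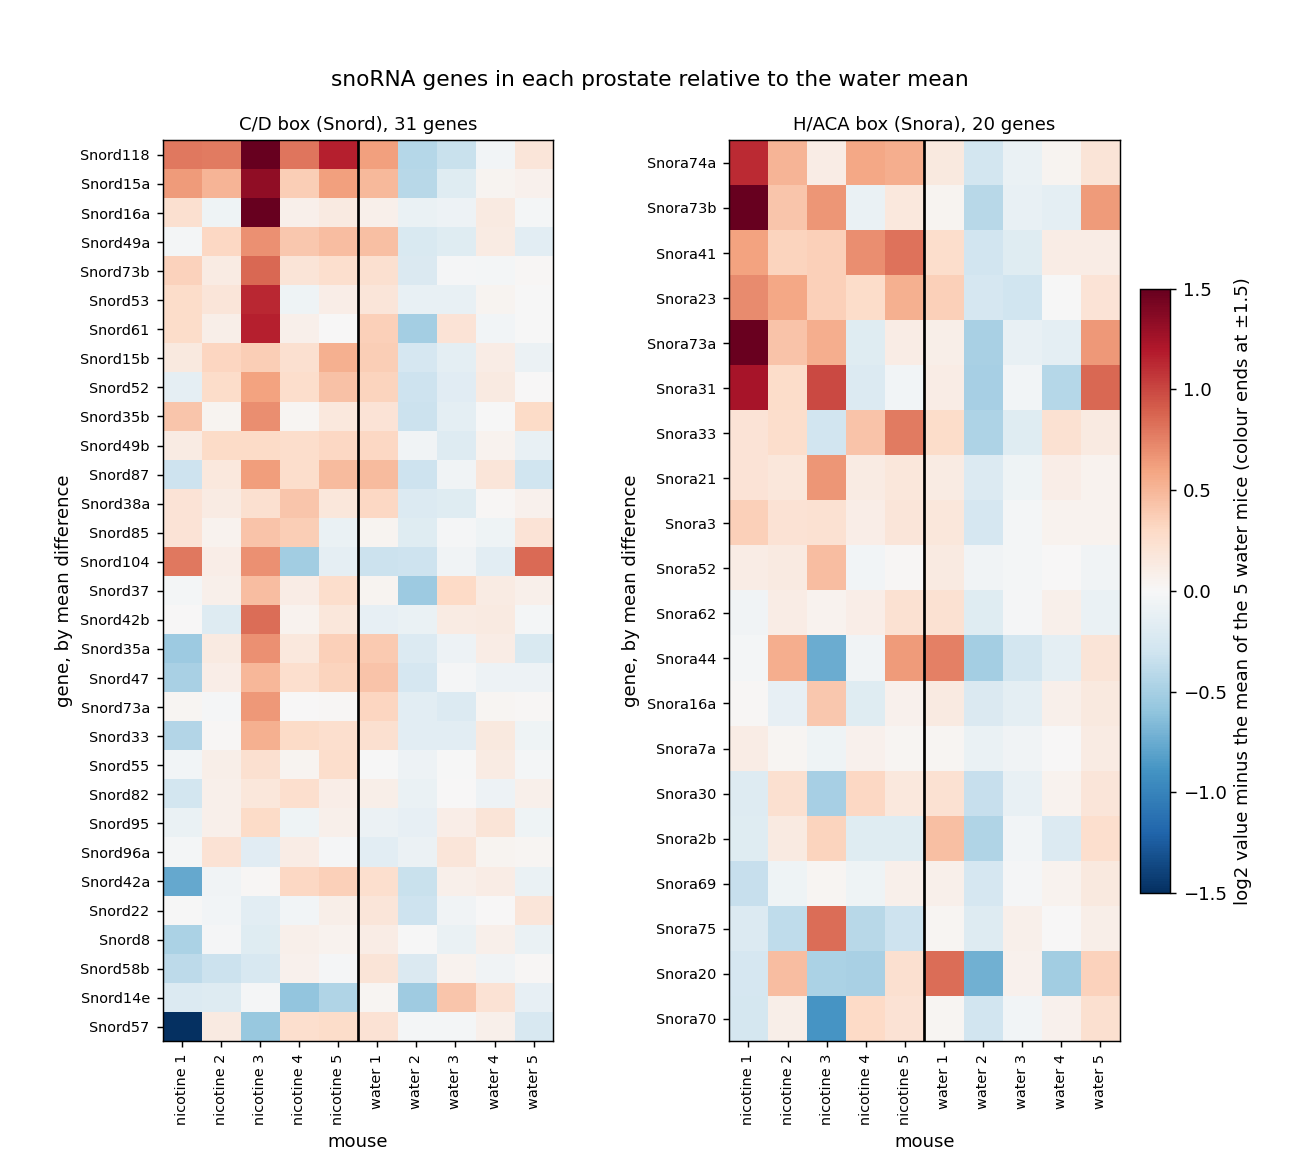
Log2 value of each snoRNA gene in each mouse minus the mean of the 5 water mice, with C/D box genes on the left and H/ACA box genes on the right, nicotine mice before water mice in each panel. Genes are ordered by the mean difference; the column of water 2 is below the water mean in all 51 genes, and nicotine 3 holds the highest value of all 10 mice in 22 of them.

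Snord118 had the largest difference of the 51. It is the snoRNA that, from work in frog oocytes, is needed to cut out the RNAs of the large ribosomal subunit, and unlike the other 50 it lies in no host gene. Its log2 values were 10.12, 10.11, 11.10, 10.13 and 10.50 in nicotine mice 1 to 5, against 9.95, 8.91, 9.01, 9.30 and 9.51 in water mice 1 to 5. All 5 nicotine mice were above all 5 water mice, with nicotine 3 the highest and water 1 within 0.2 of the lowest nicotine mouse. The difference was 1.06 ± 0.25 (SE), a fold of 2.08, with an adjusted p of 0.5145 by limma. Without nicotine mice 1 and 3 it was 0.91 ± 0.21 (adjusted p = 0.133 by limma). The platform lists a second probe set for this gene with identical values, which adds no further measurement. Its neighbour in the gene table, Tmem107, differed by 0.22 ± 0.12.

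Snora41, an H/ACA box gene within Eef1b2, which encodes a translation elongation factor subunit, was the other member known from earlier results. It stood at 7.98, 7.70, 7.73, 8.07 and 8.19 in nicotine mice 1 to 5, against 7.63, 7.08, 7.19, 7.48 and 7.48 in water mice. The groups did not overlap, and here nicotine 3 was among the lower nicotine mice. The difference was 0.56 ± 0.13 (SE; adjusted p = 0.5145 by limma), and 0.61 ± 0.14 without nicotine mice 1 and 3 (adjusted p = 0.133).

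Snora21, an H/ACA box gene within the ribosomal protein gene Rpl23, was the third and last member whose groups did not overlap. It read 8.52, 8.49, 8.98, 8.44 and 8.48 in nicotine mice, against 8.43, 8.11, 8.25, 8.41 and 8.37 in water mice. Nicotine 3 stood far above the other 4 nicotine mice, and the lowest nicotine value and the highest water value nearly met. The difference was 0.27 ± 0.11 (SE), and 0.16 ± 0.08 without nicotine mice 1 and 3. Its second probe set gave 0.23. Non-overlap in the higher direction was thus found in 3 of 51 members, beside 1.63% of all genes, and in the lower direction in 0, beside 2.33%. Without nicotine mice 1 and 3, 4 members lay above all water mice, these 3 and Snora74a, beside 3.52% of all genes, and 1 lay below, Snora75, beside 5.19%.

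Among the other H/ACA box members, Snora74a, hosted by the non-coding gene Snhg4, read 10.41, 9.81, 9.41, 9.87 and 9.84 in nicotine mice, against 9.44, 9.02, 9.20, 9.34 and 9.49 in water mice. All nicotine mice but nicotine 3 were above every water mouse. The difference was 0.57 ± 0.17 (SE), and without nicotine mice 1 and 3 it was 0.55 ± 0.10 (adjusted p = 0.0948 by limma), the smallest adjusted p of any member in that fit. Snora23, in the nuclear import gene Ipo7, read 10.74, 10.61, 10.38, 10.31 and 10.57 in nicotine mice, against 10.38, 9.78, 9.74, 10.02 and 10.23 in water mice. Its groups overlapped through water 1, and the difference was 0.49 ± 0.14, or 0.46 ± 0.14 without nicotine mice 1 and 3. Snora3, in the ribosomal protein gene Rpl27a, read 11.07, 10.93, 10.94, 10.82 and 10.90 in nicotine mice, against 10.89, 10.47, 10.69, 10.78 and 10.78 in water mice. Here too water 1 was the water mouse that reached into the nicotine range, and the difference was 0.21 ± 0.08, or 0.16 ± 0.09 without those nicotine mice.

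Snord15a and Snord15b, paired C/D box members within the ribosomal protein gene Rps3, both leaned towards nicotine. Snord15a read 9.13, 9.01, 9.82, 8.86 and 9.11 in nicotine mice, against 8.98, 8.07, 8.31, 8.53 and 8.56 in water mice, a difference of 0.69 ± 0.21 (SE). Snord15b read 10.41, 10.58, 10.63, 10.50 and 10.80 in nicotine mice, against 10.63, 10.02, 10.12, 10.38 and 10.18 in water mice, a difference of 0.32 ± 0.12. In both genes water 1 was the water mouse that overlapped the nicotine mice and water 2 was the lowest of all 10. With nicotine mice 1 and 3 left out, Snord15a differed by 0.50 ± 0.16 and Snord15b by 0.36 ± 0.13.

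The remaining C/D box members at an unadjusted p under 0.05 showed the same overlap. Snord49b, hosted by the non-coding gene 2410006H16Rik, read 11.74, 11.90, 11.90, 11.88 and 11.93 in nicotine mice, against 11.92, 11.57, 11.42, 11.67 and 11.50 in water mice, with a difference of 0.26 ± 0.09 (SE). Snord49a, of the same host, read 8.62, 8.97, 9.35, 9.06 and 9.12 in nicotine mice, against 9.11, 8.42, 8.47, 8.77 and 8.50 in water mice, with a difference of 0.37 ± 0.16. In both, water 1 lay inside the nicotine range and the other 4 water mice were below 4 of the nicotine mice. With nicotine mice 1 and 3 left out, Snord49b differed by 0.29 ± 0.10 and Snord49a by 0.39 ± 0.14. Snord73b, in Rps3a1, read 10.43, 10.20, 10.94, 10.27 and 10.34 in nicotine mice, against 10.32, 9.86, 10.06, 10.05 and 10.10 in water mice. Its difference was 0.35 ± 0.14, and 0.19 ± 0.09 without nicotine mice 1 and 3.

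**Figure D2:**
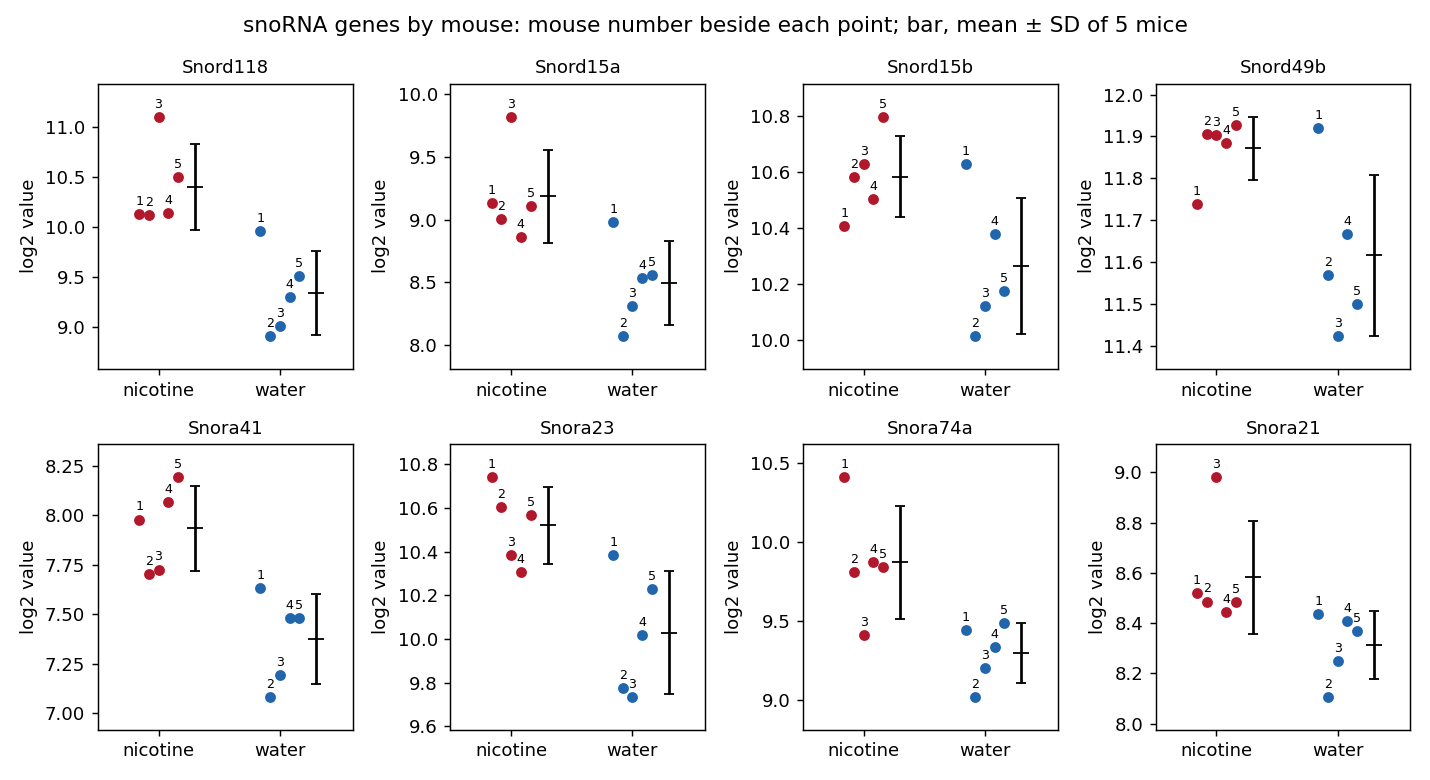
Log2 values of 8 snoRNA genes by mouse, nicotine mice in red on the left and water mice in blue on the right of each panel, with the mouse number at each point and the mean ± SD of 5 mice as a bar. The groups do not overlap in Snord118, Snora41 and Snora21, and in the other 5 panels water 1 or nicotine 3 brings the groups together; each panel has its own axis, which does not start at 0.

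Only 11 members had a negative difference, and none of them reached an unadjusted p under 0.05. Snord14e, a C/D box gene in the chaperone gene Hspa8 whose family is needed for the small-subunit ribosomal RNA in yeast, read 9.08, 9.09, 9.28, 8.70 and 8.84 in nicotine mice, against 9.32, 8.76, 9.71, 9.50 and 9.16 in water mice. The groups overlapped, with water 2 far below the other water mice, and the difference was -0.29 ± 0.18 (SE), or -0.41 ± 0.18 without nicotine mice 1 and 3. Snord57, within Nop56, a core protein gene of the C/D box particle, read 10.67, 12.39, 11.68, 12.49 and 12.53 in nicotine mice, against 12.47, 12.22, 12.22, 12.32 and 12.00 in water mice. Its mean difference of -0.30 ± 0.33 came from nicotine mice 1 and 3, and without them the value was 0.22 ± 0.09. Snora75, in the nucleolin gene Ncl, read 7.53, 7.35, 8.56, 7.32 and 7.42 in nicotine mice, against 7.76, 7.53, 7.80, 7.73 and 7.82 in water mice. Nicotine 3 alone was above the water mice; the difference was -0.09 ± 0.22, and without nicotine mice 1 and 3 it was -0.37 ± 0.07 (adjusted p = 0.104 by limma), with the 3 nicotine mice below all water mice.

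The other 8 negative members had differences between -0.18 and -0.02: Snord58b, Snora70, Snord8, Snora20, Snora69, Snord22, Snord42a and Snora2b. Snora70, hosted by Rpl10, was lowest in nicotine 3 at 8.39, with 9.01 to 9.57 in the other nicotine mice, against 8.99 to 9.52 in water mice. Snord42a was lowest in nicotine 1 at 7.79, with 8.50 to 8.91 in the other nicotine mice, against 8.21 to 8.81 in water mice. Snord22, hosted by Snhg1, stayed within 9.02 to 9.27 in nicotine mice and 8.87 to 9.36 in water mice.

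Among the other positive C/D box members, Snord38a read 6.12, 6.05, 6.15, 6.33 and 6.09 in nicotine mice, against 6.23, 5.71, 5.73, 5.94 and 5.98 in water mice. Only water 1 reached into the nicotine range, and the difference was 0.23 ± 0.10 (SE). Snord52, Snord87, Snord35b, Snord85, Snord37, Snord55, Snord42b and Snord73a had overlapping groups and differences from 0.12 ± 0.07 for Snord55 to 0.29 ± 0.16 for Snord52. Of the H/ACA box members, Snora33, in Rps12, differed by 0.28 ± 0.21, and by 0.49 without nicotine mice 1 and 3, since nicotine 3 was its lowest nicotine mouse at 7.92. Snora52, Snora62, Snora7a, Snora16a and Snora30 had differences from 0.00 to 0.14. The level of Snord37, Snord38a, Snord52, Snord58b, Snord61 and Snord73a was among the lowest 25% of all genes on average.

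The second comparison was between arrays within each group. The most uniform feature of the family was water 2: its value was below the mean of the 5 water mice in all 51 members, where 56.6% of all genes were above their water mean in that mouse. Water 2 was the lowest water mouse in 40 of 51 members, or 78.4%, beside 17.3% of all genes, and in 19 of 20 H/ACA box and 21 of 31 C/D box members. It was the lowest of all 10 mice in 29. At the other end, water 1 was the highest water mouse in 31 of 51, or 60.8%, beside 23.7% of all genes. The median deviation from the water mean over the 51 genes was -0.25 log2 units in water 2 and 0.19 in water 1, and between -0.06 and 0.06 in the other 3 water mice. These values are descriptions without a test, since the genes of 1 array share its RNA extract and labelling.

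Values of the family were spread more widely over the water mice than those of genes in general. The median SD over the 5 water mice was 0.21 for the members and 0.09 for all genes, and 47 of 51 members were above the median of all genes. The median range over all 10 mice was 0.99 for the members and 0.57 for all genes. A median range this wide was not particular to the family. It was also 0.99 for the 16 short RNA genes outside the name prefixes, described further on. Their median SD over the water mice was 0.16, between that of the members and that of all genes. For the 300 microRNA genes the median range was 0.42 and the median SD over the water mice 0.10. A range over 1 log2 unit occurred in 25 of 51 members, or 49.0%, beside 28.0% of all genes.

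In the nicotine group the order of the mice differed between the 2 classes. Nicotine 3 was the highest nicotine mouse in 19 of 31 C/D box members, or 61.3%, and in 5 of 20 H/ACA box members, beside 32.0% of all genes. Nicotine 1 was the lowest nicotine mouse in 16 of 31 C/D box members, or 51.6%, and in 2 of 20 H/ACA box members, beside 19.0% of all genes. Conversely, nicotine 1 was the highest nicotine mouse in 1 C/D box and 7 H/ACA box members. Median deviations from the water mean in nicotine mice 1 to 5 were -0.03, 0.09, 0.50, 0.16 and 0.17 for C/D box genes. For H/ACA box genes they were 0.11, 0.23, 0.28, 0.01 and 0.16 in the same order. In water mice 1 to 5 the C/D box medians were 0.22, -0.22, -0.06, 0.05 and 0.00, and the H/ACA box medians were 0.14, -0.28, -0.06, 0.02 and 0.16. The nicotine and water mice overlapped in both classes: nicotine 1 in the C/D box genes and nicotine 4 in the H/ACA box genes were each below water mice 1, 4 and 5.

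**Figure D3:**
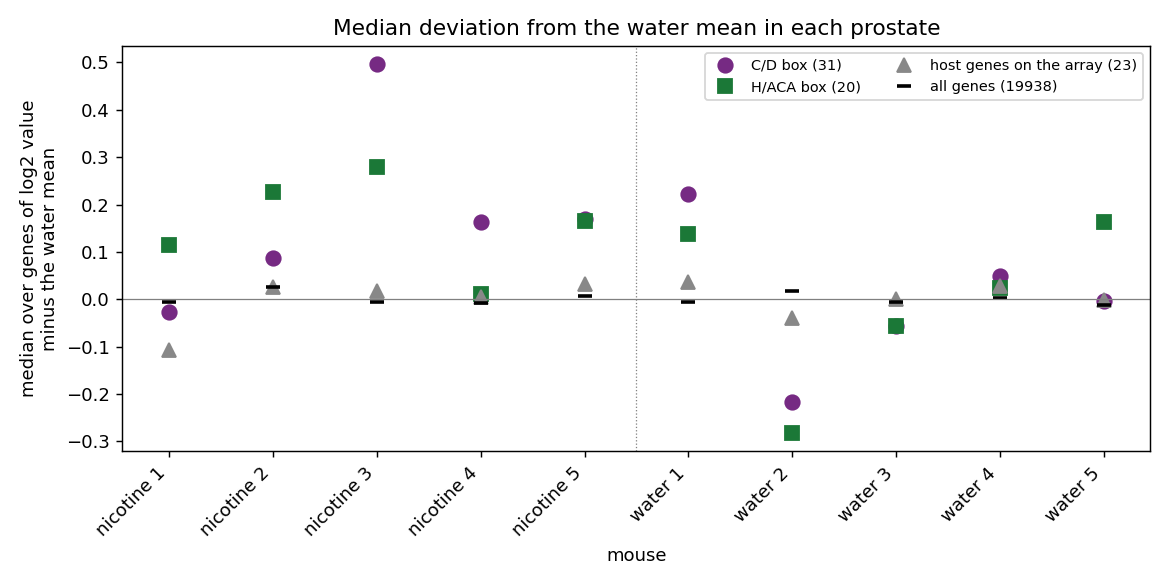
Median over genes of the log2 value minus the water mean, for C/D box genes, H/ACA box genes, their measured host genes and all genes, in each nicotine and then each water mouse. Both snoRNA classes dip in water 2, to -0.22 and -0.28, the C/D box median peaks at 0.50 in nicotine 3, and the host genes stay between -0.11 and 0.04.

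After Snord118, whose groups did not overlap, the widest ranges over the 10 mice were those of Snora73b and Snora73a. Snora73a and Snora73b, near-identical H/ACA box copies in Snhg3 whose yeast counterpart is needed to process small-subunit ribosomal RNA, may share signal between their probe sets. Snora73b read 11.97, 10.70, 10.94, 10.18 and 10.43 in nicotine mice, against 10.32, 9.86, 10.16, 10.13 and 10.91 in water mice. Snora73a had the same 3 mice at the top, with 12.03 in nicotine 1, 11.08 in nicotine 3 and 11.19 in water 5. Nicotine 1 was the highest mouse for both, and water 5 stood above the other water mice. Snora73b differed by 0.57 ± 0.33 (SE), or 0.16 ± 0.20 with nicotine mice 1 and 3 left out, and Snora73a by 0.48 ± 0.31, or 0.12 ± 0.22.

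A like set of mice was high in 2 members from other hosts. Snora31, in the translationally controlled tumour protein gene Tpt1, read 9.68, 8.73, 9.44, 8.25 and 8.41 in nicotine mice, against 8.56, 7.94, 8.40, 8.02 and 9.31 in water mice. Snord104, in the non-coding gene Gm36220, read 12.83, 12.14, 12.73, 11.52 and 11.91 in nicotine mice, against 11.72, 11.74, 11.99, 11.88 and 12.89 in water mice. In both, nicotine mice 1 and 3 and water 5 were the 3 highest of the 10 mice. Snora31 differed by 0.45 ± 0.34, or 0.01 ± 0.26 with nicotine mice 1 and 3 left out, and Snord104 by 0.18 ± 0.30, or -0.19 ± 0.25.

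Other wide members had nicotine 3 at the top. Snord16a, in Rpl4, read 10.72 in nicotine 3 and 9.11 to 9.41 in the other nicotine mice, against 9.07 to 9.31 in water mice. Its difference was 0.39 ± 0.27 (SE), or 0.05 ± 0.07 without nicotine mice 1 and 3. Snord61, in the RNA-binding protein gene Rbmx, read 6.66 in nicotine 3 and 5.50 to 5.76 in the others, against 4.98 to 5.85 in water mice. Its difference was 0.32 ± 0.24, or 0.06 ± 0.16 without those mice. Snora44, in Snhg12, ran the other way, with its lowest value of all, 8.65, in nicotine 3 and its highest, 10.15, in water 1. Snora20, in the chaperonin gene Tcp1, was also highest in water 1, at 9.37, and lowest in water 2, at 7.81, with 8.04 to 8.99 in nicotine mice.

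Of the host genes, 10 held 2 measured members each, which allowed snoRNAs of 1 primary transcript to be set side by side. The difference had the same sign in 8 of these 10 pairs, the highest mouse was shared in 3 and the lowest in 4. Pairs from different hosts were not counted, so these counts have no reference. Over all 51 members, 40 had a positive difference, and water 2 was the lowest mouse in 29. Snord33 and Snord35a, of the ribosomal protein gene Rpl13a, lay on the same side of their water means in all 10 mice: both were lowest in nicotine 1, at 9.76 and 9.90, and highest in nicotine 3, at 10.74 and 11.14. The Snhg12 pair parted instead. In nicotine 3, Snora16a had its highest value of all mice, 10.10, and Snora44 its lowest, 8.65, while water mice ran from 9.49 to 9.85 and from 8.88 to 10.15. The pair in Ncl also parted, as Snora75 was highest in nicotine 3 (8.56) and lowest in nicotine 4 (7.32), while Snord82 was highest in nicotine 4 (11.67) and lowest in nicotine 1 (11.14). In Rack1, a ribosome scaffold gene, Snord95 and Snord96a differed between the groups by 0.05 ± 0.09 and 0.02 ± 0.09.

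The host genes themselves could be read for 27 members, through 23 hosts that had a probe set of their own. The difference, nicotine minus water, had a median of 0.17 over these snoRNA genes and -0.02 over their hosts, counted once per pair. It was larger in the snoRNA than in the host in 20 of 27 pairs, and also in 20 without nicotine mice 1 and 3. In 14 pairs the snoRNA difference was positive and the host difference negative, in 6 both were positive, in 3 both were negative and in 4 the snoRNA alone was negative. The range over the 10 mice was wider in the snoRNA in 25 of 27 pairs, with medians of 1.03 and 0.61, and the SD over water mice was wider in 26. The 23 hosts had a median level of 11.98 log2 units and the 51 snoRNA genes one of 9.14. The part of this gap in level in the narrower host values was not tested. None of these hosts passed limma's test after adjustment. The 61 ribosomal protein genes on the array had a median difference of -0.07, with 11 positive, and of 0.02 without nicotine mice 1 and 3, with 44 positive.

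The snoRNA difference exceeded that of the host most in Snord15a and Rps3, by 0.72, then in Snora41 and Eef1b2, by 0.70. The median over the 27 pairs was 0.21, so these examples are extremes. Rps3 read 12.08, 12.16, 12.03, 12.02 and 12.17 in nicotine mice, against 12.05, 12.14, 12.17, 12.17 and 12.04 in water mice. Its difference was -0.02 ± 0.05 (SE), beside 0.69 ± 0.21 for Snord15a inside it. Water 2, the lowest mouse for Snord15a, was not the lowest for Rps3. Over the 23 hosts, however, water 2 was the lowest water mouse in 11, or 47.8%, with a median deviation of -0.04 from the water mean. It was so in 37.7% of the 61 ribosomal protein genes, beside 17.3% of all genes. Eef1b2, which holds Snora41, differed by -0.14 ± 0.13, with 12.00, 12.27, 11.64, 12.13 and 12.25 in nicotine mice, against 12.39, 12.16, 12.23, 12.25 and 11.99 in water mice. Nop56 and its Snord57 diverged in nicotine 1 and 3: the host read 10.90 and 11.38 there, above all water mice (10.50 to 10.71), and Snord57 read 10.67 and 11.68, below all water mice. Gas5 and its Snord47 differed alike, by 0.14 ± 0.10 and 0.14 ± 0.19.

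**Figure D4:**
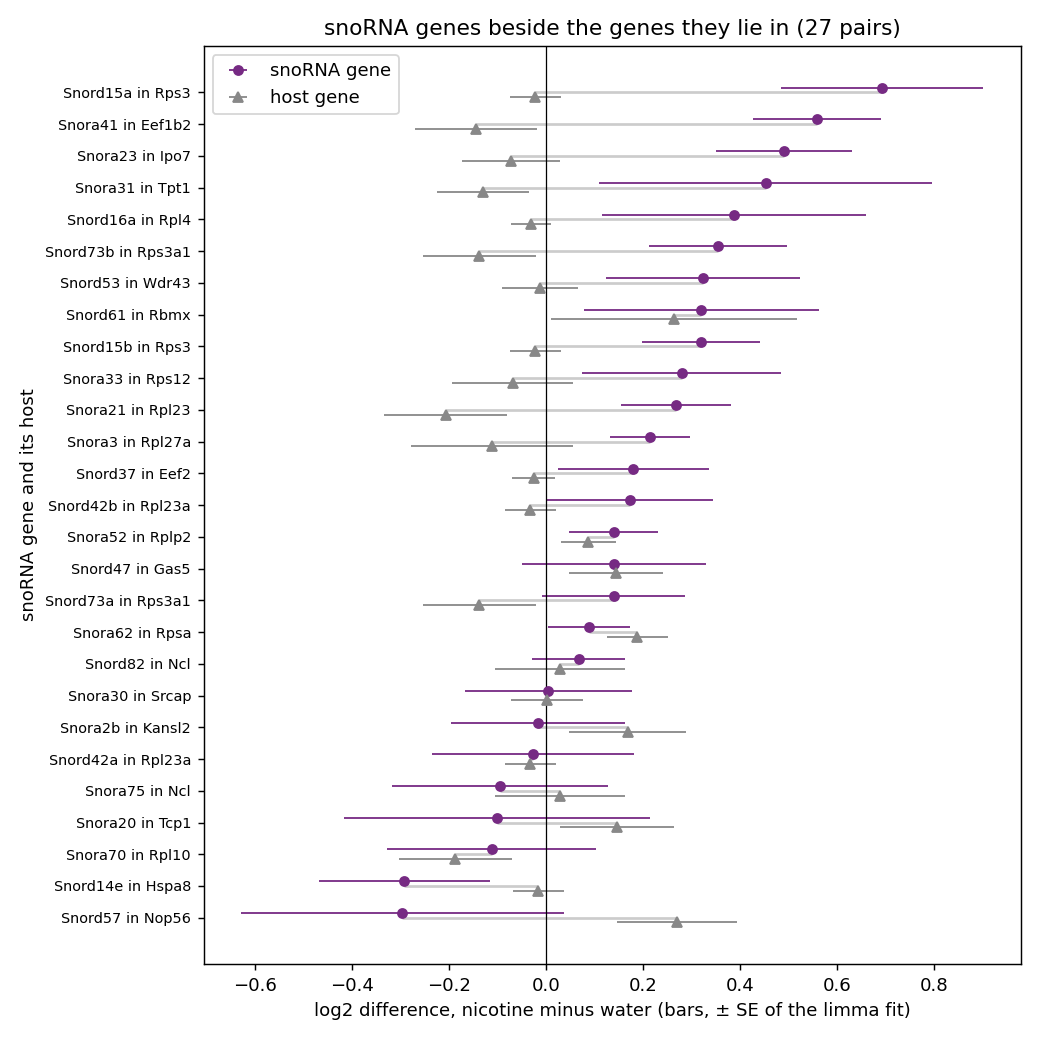
Log2 difference, nicotine minus water, of 27 snoRNA genes (circles) and of the gene each lies in (triangles), with the SE of the limma fit as bars. The snoRNA value exceeds that of its host in 20 pairs; in Snord57 and Nop56 the order is turned, at -0.30 and 0.27.

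Short RNA genes outside the 2 name prefixes were read in the same way. The 16 small nuclear, Cajal body, Y, vault, 5S and similar RNA genes had a median difference of 0.19, with 13 positive, and without nicotine mice 1 and 3 a median of 0.10, with 9 positive. At an unadjusted p under 0.05, beside 3.93% of all genes, 4 were higher: Rmrp and Rpph1, RNA parts of cleaving enzymes, by 0.39 ± 0.13 and 0.15 ± 0.06 (SE), the Y RNA gene Rny3 by 0.15 ± 0.06 and the 5S gene n-R5s136 by 0.32 ± 0.09. Of these, with nicotine mice 1 and 3 left out, only n-R5s136 was higher at that level (0.22 ± 0.07), beside 5.21% of all genes, and Rnu7, a small nuclear RNA gene of histone message processing, was lower (-0.40 ± 0.14), beside 7.22%. In that fit Rmrp differed by 0.23 ± 0.11, Rpph1 by 0.13 ± 0.07 and Rny3 by 0.10 ± 0.05. Water 2 was the lowest water mouse in 7 of the 16 and the highest in 0. The 300 microRNA genes, by contrast, had a median of 0.03, with 194 positive, and 192 of the 300 were among the 25% of genes with the lowest level, compared with 6 of 51 snoRNA genes. In microRNA genes water 2 was the lowest water mouse in 14.3% and the highest in 43.3%, beside 17.3% and 29.4% of all genes.

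Of the 16, 5 carry C/D or H/ACA box structures, Rnu3a, Terc, Scarna13, Scarna8 and Scarna17, and were picked out after their values were seen. Rnu3a, the C/D box RNA that starts processing of the ribosomal RNA precursor, read 11.05, 10.05, 11.52, 9.02 and 9.52 in nicotine mice, against 9.59, 8.85, 9.71, 9.08 and 10.93 in water mice. Nicotine mice 1 and 3 and water 5 were the 3 highest, as for Snora31 and Snord104, and the difference was 0.60 ± 0.54 (SE). Terc, the H/ACA box RNA of telomerase, read 11.38, 9.34, 10.34, 9.08 and 9.34 in nicotine mice, against 9.28, 9.13, 9.13, 9.24 and 8.96 in water mice. Scarna13, an RNA of Cajal bodies, read 11.37, 9.56, 11.31, 9.47 and 9.69 in nicotine mice, against 9.58, 9.63, 9.69, 9.73 and 10.03 in water mice. For Terc and Scarna13, nicotine mice 1 and 3 lay above all others, and the differences were 0.75 ± 0.40 and 0.55 ± 0.40. Without these 2 mice the differences were -0.10 ± 0.40 for Rnu3a, 0.10 ± 0.09 for Terc and -0.16 ± 0.10 for Scarna13. Scarna8 read 7.73, 7.77, 8.88, 7.81 and 7.62 in nicotine mice, against 7.98, 7.62, 7.86, 7.62 and 7.84 in water mice. Scarna17 ran the other way in nicotine 3, with 12.87, 12.97, 12.23, 12.56 and 12.97 in nicotine mice, against 12.55, 12.66, 12.60, 12.78 and 12.93 in water mice. Their differences were 0.18 ± 0.22 and 0.02 ± 0.15, or -0.05 ± 0.09 and 0.13 ± 0.11 without nicotine mice 1 and 3.

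The proteins that snoRNAs work with were read from a list of core and assembly factors, and 0 of its 25 genes passed limma's test after adjustment. Of the 4 core proteins of the C/D box particle, Snu13 read 11.89, 11.58, 11.85, 11.48 and 11.56 in nicotine mice, against 11.39, 11.42, 11.38, 11.46 and 11.40 in water mice, with no overlap and a difference of 0.26 ± 0.08 (SE). Fbl, the methylating enzyme, differed by 0.20 ± 0.07, Nop56 by 0.27 ± 0.12 and Nop58 by -0.02 ± 0.17. With nicotine mice 1 and 3 left out, Snu13 differed by 0.13 ± 0.05, Fbl by 0.13 ± 0.07 and Nop56 by 0.11 ± 0.06. Of the 4 H/ACA box proteins, Dkc1, the pseudouridine-forming enzyme, differed by 0.03 ± 0.16, Nhp2 by 0.18 ± 0.07, Gar1 by 0.09 ± 0.08 and Nop10 by 0.07 ± 0.10. With nicotine mice 1 and 3 left out and in the same order, these values were 0.04 ± 0.10, 0.15 ± 0.08, -0.0052 ± 0.06 and 0.14 ± 0.08. The 17 assembly and trafficking factors had 12 positive differences and a median of 0.16, or 0.03 without nicotine mice 1 and 3. Among them Znhit3, an assembly factor, was above all water mice in all nicotine mice, with a difference of 0.24 ± 0.07, and the helicase gene Ruvbl2 (0.23 ± 0.08) and its partner Pih1d1 (0.25 ± 0.09) had positive values whose groups overlapped. Leaving out the same mice gave 0.17 ± 0.05 for Znhit3, 0.12 ± 0.06 for Ruvbl2 and 0.11 ± 0.06 for Pih1d1. Of 13 genes of short RNA processing and decay, 5 had positive and 8 negative differences, with the exonuclease gene Xrn1 at -0.35 ± 0.10 and the trimming enzyme gene Parn at -0.23 ± 0.08. With those mice left out, Xrn1 was at -0.28 ± 0.08 and Parn at -0.11 ± 0.06.

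Marker levels of other cell types and of dividing cells also differed in mean between the groups, but none of these markers passed limma's test after adjustment. Proliferation markers (7 of 8 measured) averaged 10.11 to 11.26 in nicotine mice, with nicotine 3 and 1 the highest, against 9.67 to 9.85 in water mice. Their median difference was 0.85, or 0.38 without nicotine mice 1 and 3. Of the 7, 6 were higher with groups that did not overlap, beside 1.63% of all genes. Fibroblast markers (4 of 4) averaged 8.34 to 9.73 in nicotine mice, against 10.05 to 10.42 in water mice, with a median difference of -0.90, or -0.72 without nicotine mice 1 and 3. Macrophage markers (5 of 5) averaged 7.78 to 8.28 in nicotine mice, against 8.23 to 9.08 in water mice, with a median difference of -0.79, or -0.67 without those mice. Groups did not overlap, in the lower direction, in 3 of the 4 fibroblast and 4 of the 5 macrophage markers, beside 2.33% of all genes. T cell markers (4 of 4) had a median difference of -0.10, or -0.11 without nicotine mice 1 and 3, and all 4 had overlapping groups. The part of these cell populations in the snoRNA values was not tested. Beside the low snoRNA values of water 2, its proliferation markers deviated by a median of -0.07 from the water mean, its fibroblast markers by -0.13 and its neuroendocrine markers by 0.34. Seminal vesicle markers (6 of 6) averaged 7.92 in water 2 and 7.63 in water 1, and 12.41 to 13.35 in the other water mice. Among water mice, water 2 had the lowest and water 1 the highest median deviation over the 51 snoRNA genes. In H/ACA box genes, however, water 5 (0.16) was above water 1 (0.14). Of the 13 short RNA processing and decay genes, 7 were lowest in water 2 among water mice, beside 17.3% of all genes. In that mouse the 13 deviated from the water mean by a median of -0.09.

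The array also held host RNAs of a further snoRNA locus. Meg3 and Rian, non-coding RNA genes of an imprinted locus that holds arrays of C/D box snoRNAs in mammals, were highest in nicotine 3, at 11.04 and 8.31. The other nicotine mice read 7.87 to 8.20 and 6.10 to 6.26, against 7.83 to 8.67 and 5.88 to 6.38 in water mice. None of the 9 listed snoRNAs of that locus had a probe set among the 51. Over the whole array, not only for that locus, 41 probe sets with a snoRNA symbol carried several symbols and were not analysed here. Of these, 24 carried a symbol of the Snord116 family.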

How the data were processed

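The authors deposited 1 table of log2 values for 35556 probe sets on 10 single-colour whole-transcript arrays. Per the labels, prostate RNA was extracted with Trizol, amplified and labelled with biotin. For background correction, normalization and genome build nothing was given in the sources used, and the scale was read as log2 from the range of the values, 3.59 to 14.1. Scan dates were not analysed here. Precision is limited by having 5 arrays per group.

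Symbols came from the annotation of the platform, some of it possibly out of date: 21789 probe sets had 1 symbol, 1621 several and 12146 none. For each of 19938 symbols the probe set with the highest mean was kept. Nicotine was compared with water by limma 3.58.1 (lmFit and eBayes, R 4.3.3), two-sided, Benjamini-Hochberg adjusted over all these genes, threshold 0.05, with no filter on level. Of the 51 snoRNA genes, 45 lie above the 25% of genes with the lowest mean (6.55), and 6, all C/D box, below it. SEs are those of the moderated fit. Hosts are the shortest gene enclosing a member in RefSeq's table of assembly GRCm38.p6, without regard to strand. The genes enclosing Snord47, Snord87 and Snord8 overlap another gene. Start sequences are RefSeq's (GRCm38.p6). The sequences of the snoRNAs themselves were not used here.

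Members and lists were chosen with earlier results of these data known. Genes were named by a written rule: per class, the smallest p in each direction, the highest and lowest means, the widest ranges, ribosomal RNA processing snoRNAs and the core particle proteins. Members sharing a host, the hosts and the short RNA genes outside the prefixes were added after values were seen. The fit was tested on simulated data. Alternatives are given in the closing section.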

Additional observations from a re-analysis of the deposited data

Results flagged for a closer look

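Of 106 sets of 5 mice examined (each of the 51 genes and both class medians, in each group), 9 held a mouse whose gap to its nearest neighbour took up more than 0.71 of the set's range. Chance alone marks about 1 set in 20. In 7 of the 9 the mouse was nicotine 3, which was also low in luminal and high in neuroendocrine markers. It stood above the other 4 nicotine mice in Snora21 (8.98, others 8.44 to 8.52), Snora75 (8.56, others 7.32 to 7.53), Snord15a (9.82, others 8.86 to 9.13) and Snord16a (10.72, others 9.11 to 9.41). It also did so in Snord53 (9.41, others 8.22 to 8.56), Snord61 (6.66, others 5.50 to 5.76) and Snord73a (7.01, others 6.35 to 6.40). Nicotine 1 was below the other nicotine mice in Snord49b (11.74, others 11.88 to 11.93). Water 5 was above the other water mice in Snord104 (12.89, others 11.72 to 11.99).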

How the results depend on the processing

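The count of 0 snoRNA genes past the adjusted threshold was also found in 19 of 20 other settings, including each fit that left out 1 mouse (0 to 0). With array weights, which gave nicotine mice 1 and 3 the lowest weights of all (0.158 and 0.0456), 9 of the 51 passed, beside 2.35% of all genes. Of these, 8 were higher (Snora74a, Snord118, Snora41, Snord15a, Snora23, Snord49b, Snord15b and Snord49a) and Snora75 was lower (-0.35). The medians of both classes kept their sign in every setting, and leaving out 1 mouse gave 0.09 to 0.23 for C/D box and 0.09 to 0.21 for H/ACA box genes. With the first principal component as covariate they were 0.08 and 0.16. The mouse numbers are shared by both groups, and same-numbered mice correlated at -0.12 to 0.16 in their deviations. With no reference for such correlations, these values cannot decide whether the numbers pair the mice. With the replicate block, 0 members passed and 7 were higher at an unadjusted p under 0.05, beside 2.66% of all genes.

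Of 39 named genes, 27 kept their sign in all settings. The sign turned with array weights in Snord8 (0.049), Snord57 (0.21), Snord22 (0.051), Snord42a (0.21), Snord104 (-0.12), Snora69 (0.012), Snora70 (0.19), Snora20 (0.21), Dkc1 (-0.019) and Gar1 (-0.0075). Without nicotine mice 1 and 3 it turned in Snord8 (0.036), Snord57 (0.22), Snord22 (0.00072), Snord42a (0.20), Snord104 (-0.19), Snora70 (0.20), Snora20 (0.071) and Gar1 (-0.0052). With the first principal component it turned in Snord57 (0.0093), Snord22 (0.016), Snord42a (0.079), Snord104 (-0.10), Snora70 (0.22), Snora20 (0.074) and Dkc1 (-0.070). Leaving out 1 mouse gave -0.44 to 0.024 for Snord57, -0.11 to 0.012 for Snord22, -0.12 to 0.16 for Snord42a and -0.21 to 0.083 for Snora70. It gave -0.28 to 0.11 for Snora20, -0.13 to 0.096 for Snora2b, -0.17 to 0.12 for Nop58 and -0.083 to 0.15 for Dkc1. The cause was not tested.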
